A study of Homo sapiens with 5 samples.

Results

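The genes examined here encode 10 proteins that fuse, divide or remodel mitochondria: MFN1, MFN2 and OPA1, DNM1L with MFF, FIS1, MIEF1 and MIEF2, and the proteases OMA1 and YME1L1. They were taken by symbol from a deposited table of 16677 genes, and 10 of 10 had a row and passed the filter on low counts. RNA was sequenced in 5 libraries from HEK293, an established line from human embryonic kidney. The 2 Control libraries were wild type, and the 3 rs11607019 libraries, called variant below, carried a T-to-C change at that position, which the series places in SIRT3. Both groups were grown under basal conditions with no treatment named. Whether a group is 1 clone or several, how the change was made and whether the replicates are separate cultures are not given in the sources used here, so p-values measure the spread between these libraries, which may be technical.

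Mitochondria form a network that is joined by fusion and cut by fission. The mitofusins MFN1 and MFN2 are GTPases that join outer membranes, and OPA1 is the GTPase that joins inner membranes and keeps cristae tight. OMA1 and YME1L1 are inner-membrane proteases that cut OPA1 from long into short forms. For fission, the GTPase DNM1L (also called DRP1) is recruited from the cytosol to the outer membrane by the receptors MFF, MIEF1, MIEF2 and, in some settings, FIS1. SIRT3 is a deacetylase of the mitochondrial matrix, and OPA1 protein is among its described substrates. The counts report messenger RNA summed over all isoforms of a gene, so they say nothing of OPA1 cleavage or of protein modification.

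Library totals ran from 17122569 to 17596084 counts. SIRT3 itself stood at 28.9 and 29.3 CPM (counts normalised to library size and scaled by TMM, the trimmed mean of M-values) in Control 1 and 2 and at 26.5, 15.8 and 30.2 CPM in variant 1, 2 and 3, with a log2 fold change of −0.27 (SE 0.26, adjusted p = 0.815 in edgeR's quasi-likelihood test). Variant 2 thus stood apart from the other libraries at SIRT3, and without it the log2 fold change was −0.037. Without variant 3 the log2 fold change was −0.46, and over all fits described below it ran from −0.56 to −0.037. Among the markers listed for HEK293, the nephric genes PAX2 and LHX1 held at least 165 counts in every library and VIM was at 329 to 623 CPM, while NEFM, NEFL, EYA1 and CDH2 had no row. None of the 3 blood or 2 hepatocyte markers had a row. Of 4 fibroblast markers 2 had one, COL1A1 at 28.2 to 46.4 CPM and COL3A1 at 1.27 to 2.68 CPM.

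None of the 10 fusion and fission genes differed between the groups at an adjusted p under 0.05 in edgeR's test, where the share over all 16310 tested genes was 0%. At an unadjusted p under 0.05 the count was 0 of 10, where the share over all tested genes was 7.62% (4.11% higher and 3.51% lower in the variant), and DESeq2's Wald test also gave 0 by both measures (its shares over all genes were 0.196% at an adjusted and 7.40% at an unadjusted p under 0.05). The fitted log2 fold changes of the variant against Control ran from −0.31 for OMA1 to 0.14 for MFN2. Fitted values were below 0 for 7 genes and above 0 for 3, and the median was −0.13, against 0.003 over all tested genes. The 95% intervals reached down to 0.553-fold, for OMA1, and up to 1.45-fold, for MIEF1. In 3 of 10 genes, MFN1, DNM1L and OMA1, all variant libraries lay below both Control libraries, a pattern found in 13% of all tested genes. The opposite pattern was found in 0 of 10 genes, against 11.8% of all, so 3 of 10 genes had groups without overlap where 24.8% of all did.

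**Figure D1:**
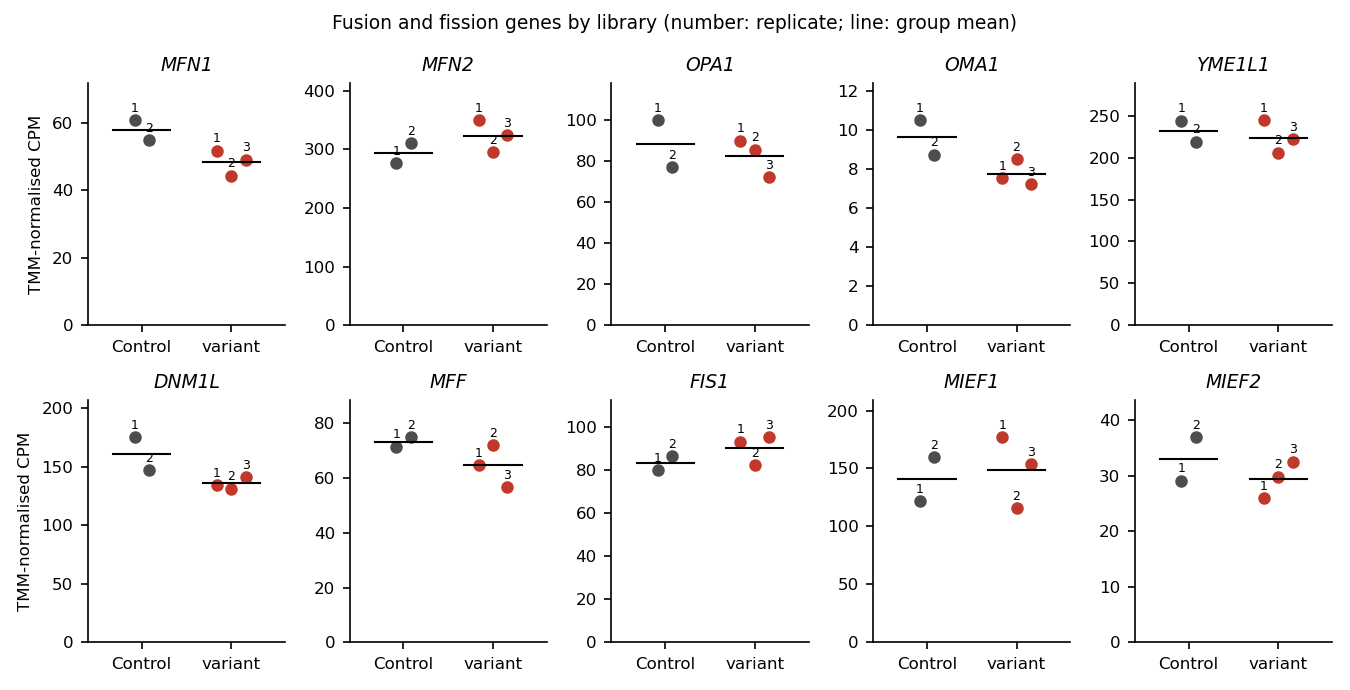
TMM-normalised CPM (y axis, from 0, a separate scale for each gene) of the 10 genes in the 2 Control and 3 variant libraries. Each point is 1 library with its replicate number, and lines are group means. Only MFN1, OMA1 and DNM1L have groups that do not overlap.

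Among the fusion GTPases, MFN1 (ENSG00000171109, hg38 chromosome 3, 179347692 to 179394931, plus strand) was at 60.9 and 54.8 CPM in Control 1 and 2, and at 51.8, 44.4 and 49.1 CPM in variant 1, 2 and 3. The means were 57.9 ± 4.32 CPM (SD, n = 2) and 48.4 ± 3.75 CPM (SD, n = 3). The groups did not overlap but Control 2 and variant 1 lay close together, and the log2 fold change was −0.26 (SE 0.16, adjusted p = 0.717 in edgeR's test). MFN2 (ENSG00000116688, chromosome 1, 11980181 to 12013514, plus strand), the other mitofusin, was at 277 and 311 CPM in the Control libraries and at 350.4, 295 and 324 CPM in the variant libraries. Variant 2 lay between the Control libraries, so the groups overlapped, and the log2 fold change was 0.14 (SE 0.14, adjusted p = 0.824 in edgeR's test). It was 0.056 without Control 1, 0.22 without Control 2 and 0.074 without variant 1. The inner-membrane gene OPA1 (ENSG00000198836, chromosome 3, 193593144 to 193697823, plus strand) was at 99.8 and 76.8 CPM in Control and at 89.8, 85.4 and 72.1 CPM in the variant. The distance between the Control libraries, 0.38 on the log2 scale, was larger than the difference between the groups, −0.099 (SE 0.18, adjusted p = 0.903 in edgeR's test).

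Of the proteases that cut OPA1, the stress-activated OMA1 (ENSG00000162600, chromosome 1, 58415384 to 58546802, minus strand) had the lowest counts of the group, 181 and 153 in Control and 130, 148 and 128 in the variant. These gave 10.5 and 8.73 CPM against 7.51, 8.50 and 7.23 CPM. Control 2 and variant 2 nearly met, and the log2 fold change of −0.31 had the widest error (SE 0.24, adjusted p = 0.751 in edgeR's test) and was −0.17 without Control 1. YME1L1 (ENSG00000136758, chromosome 10, 27110112 to 27155266, minus strand), the constitutive protease, was at 244 and 219 CPM in Control and at 245, 206 and 222 CPM in the variant. The variant range enclosed the Control range, and the log2 fold change was −0.045 (SE 0.14, adjusted p = 0.951 in edgeR's test).

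For fission, the GTPase gene DNM1L (ENSG00000087470, chromosome 12, 32679200 to 32745650, plus strand) was at 175 and 147 CPM in Control and at 134, 131 and 141 CPM in the variant. The variant libraries stood close together, at 136 ± 5.15 CPM (SD, n = 3), while the Control libraries were at 161 ± 19.8 CPM (SD, n = 2). DNM1L gave a log2 fold change of −0.25 (SE 0.15, adjusted p = 0.702 in edgeR's test), which was −0.12 without Control 1 and −0.37 without Control 2. MFF (ENSG00000168958, chromosome 2, 227325151 to 227357836, plus strand), a DNM1L receptor, was at 71.4 and 74.8 CPM in Control and at 64.7, 72.0 and 56.7 CPM in the variant. Variant 2 lay within the Control range, and the log2 fold change was −0.18 (SE 0.16, adjusted p = 0.797 in edgeR's test), or −0.096 without variant 3. FIS1 (ENSG00000214253, chromosome 7, 101239458 to 101252316, minus strand) was at 79.9 and 86.5 CPM against 93.2, 82.3 and 95.2 CPM. Again it was variant 2 that lay within the Control range, with a log2 fold change of 0.12 (SE 0.15, adjusted p = 0.866 in edgeR's test) that was 0.061 without Control 1 and 0.078 without variant 3.

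The receptors MIEF1 and MIEF2 are paralogs. MIEF1 (ENSG00000100335, chromosome 22, 39499432 to 39518132, plus strand) was at 122 and 159.5 CPM in Control and at 177, 116 and 154 CPM in the variant. Variant 1 was the highest library and variant 2 the lowest, and the log2 fold change was 0.078 (SE 0.2, adjusted p = 0.938 in edgeR's test). MIEF2 (ENSG00000177427, chromosome 17, 18260534 to 18266552, plus strand) was at 29.1 and 36.9 CPM in Control and at 25.9, 29.8 and 32.5 CPM in the variant. The groups overlapped, and the log2 fold change was −0.17 (SE 0.19, adjusted p = 0.843 in edgeR's test).

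**Figure D2:**
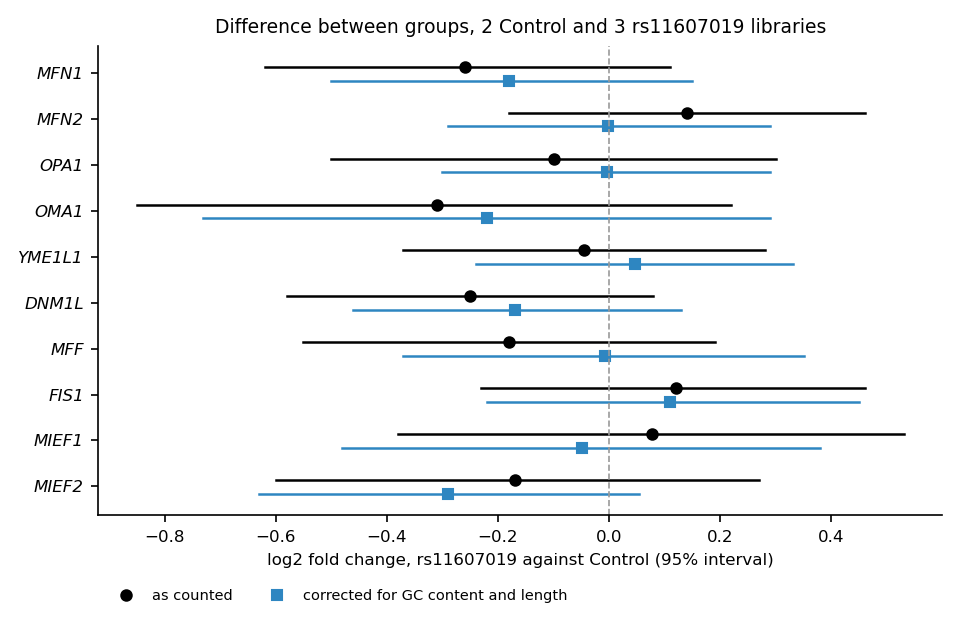
Log2 fold change of the variant against Control (x axis) with its 95% interval for each gene, as counted (black circles) and with GC content and transcript length corrected (blue squares). Each interval of both kinds includes 0.

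Levels of different genes were compared as CPM per kilobase of annotated exons, averaged over the 5 libraries of both groups. MFN2 was the most abundant of the 10, at 62.6 ± 5.64 CPM per kilobase (SD, n = 5), followed by FIS1 at 48.7 ± 3.72 and YME1L1 at 31 ± 2.28, and the library ranges of these did not overlap. DNM1L, at 20 ± 2.41, and MIEF1, at 19.3 ± 3.41, overlapped each other. A lower tier held MFF at 11 ± 1.19, OPA1 at 9.37 ± 1.21, MFN1 at 8.76 ± 1.04 and MIEF2 at 7.77 ± 1.03 CPM per kilobase, in which each gene overlapped the next. OMA1 was the least abundant, at 2.29 ± 0.352, and its range lay below that of MIEF2. HEK293 libraries thus held more MFN2 than MFN1 transcript and more MIEF1 than MIEF2 transcript in every library. Lengths were those of all annotated exons, so genes with long, rarely used exons are understated.

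The balance between partners was compared within each library, where library scaling cancels. MFN1 was 0.184 and 0.147 times as abundant as MFN2 per kilobase in Control 1 and 2, and 0.124, 0.126 and 0.127 times in variant 1, 2 and 3. The 3 variant libraries were nearly equal, within 0.035 on the log2 scale, and all lay below Control. The mean log2 ratio was −2.6 in Control and −3.0 in the variant, a difference of −0.39 beside a distance of 0.32 between the Control libraries. The summed fusion GTPases (MFN1, MFN2 and OPA1) were 3.2 and 3.97 times as abundant as DNM1L in Control and 4.83, 4.23 and 4.2 times in the variant, also without overlap. Their mean log2 difference of 0.31 equalled the distance between the Control libraries. The sum is mostly MFN2, at 62.6 CPM per kilobase against 9.37 for OPA1 and 8.76 for MFN1. Of the 3 genes only MFN2 had a log2 fold change above 0 (0.14), while MFN1 (−0.26) and OPA1 (−0.099) were below 0, as was DNM1L (−0.25). The ratio of MIEF1 to MIEF2 was 2.2 and 2.27 in Control and 3.57, 2.04 and 2.48 in the variant, and that of OMA1 to YME1L1 was 0.0862 and 0.0795 against 0.0614, 0.0822 and 0.0653. Both of these overlapped between groups. The ratios are descriptions and were not tested. How often the ratios of other gene pairs lack overlap between groups was not counted, and among single genes 24.8% lacked it.

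**Figure D3:**
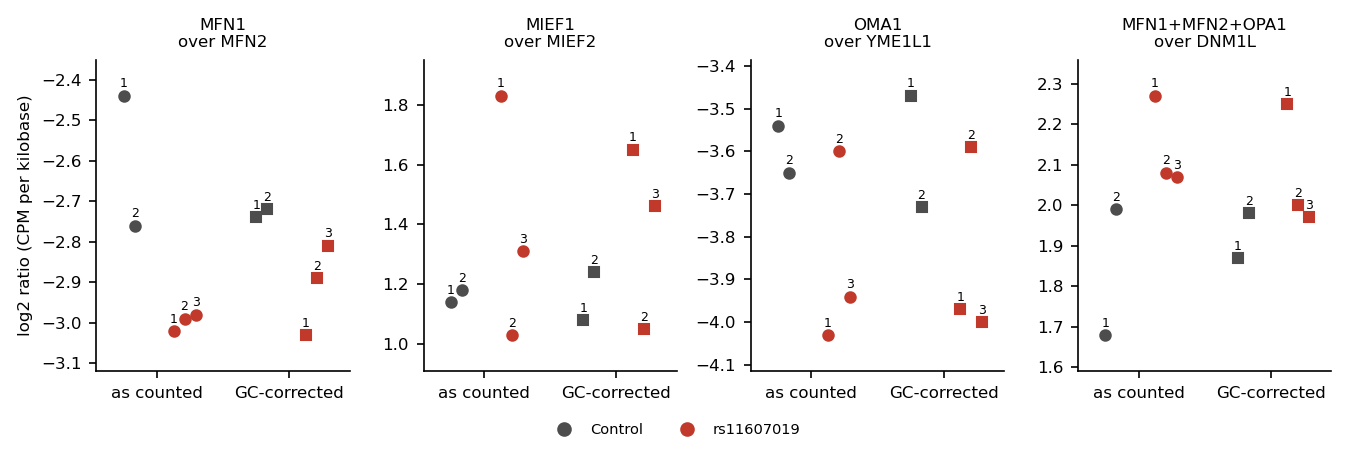
Log2 ratio per kilobase (y axis) for 4 pairs of partners in each Control (grey) and variant (red) library, as counted (circles) and with GC content and transcript length corrected (squares), with replicate numbers. For MFN1 over MFN2 the variant libraries lie below Control in both forms, and for the fusion GTPases over DNM1L they lie above Control only as counted.

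The sign of the differences followed the base composition of the transcripts. The GC content of the longest annotated transcript was between 37.4% and 43.5% in MFN1, OPA1, DNM1L, MFF, OMA1 and YME1L1, below the median of 48.1% over 10854 genes with a mean log2 CPM above 3. In these 6 genes the fitted log2 fold change was below 0 in 6. In MFN2, FIS1, MIEF1 and MIEF2, with 50% to 59% GC, it was above 0 in 3 of 4, the exception being MIEF2. The same split was seen over all of these genes: 66.1% of those below the median GC content and 35.6% of those above it had a log2 fold change below 0. Over these genes, which share libraries, Spearman's rho between GC content and log2 fold change was 0.403. Between GC content and each library's deviation from the mean it was −0.53 in Control 1, 0.0675 in Control 2, −0.122 in variant 1, 0.243 in variant 2 and 0.469 in variant 3. Control 1 and variant 3 were thus the libraries at opposite ends.

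**Figure D4:**
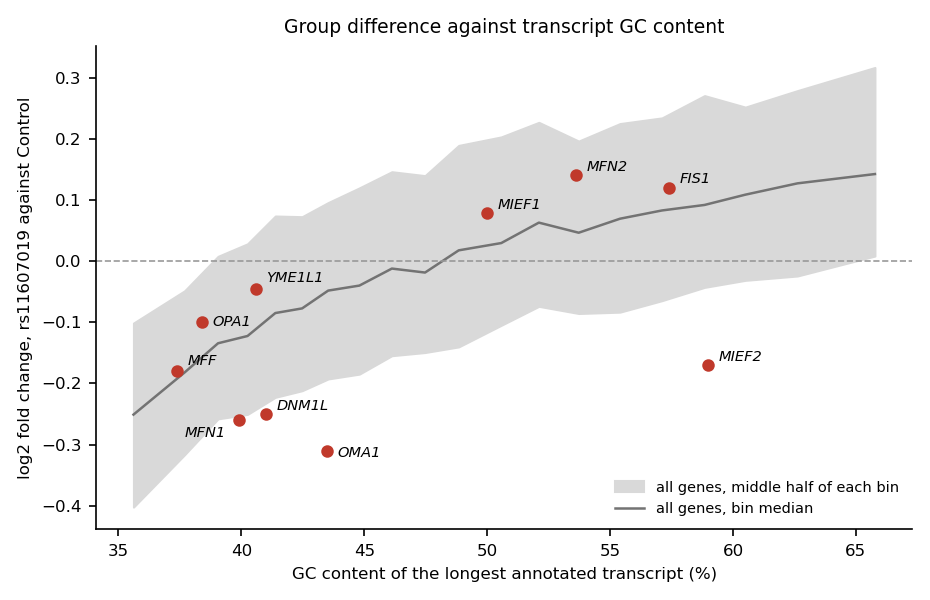
Log2 fold change of the variant against Control (y axis) against the GC content of the longest transcript (x axis). Red points are the 10 genes, the grey line is the median of all genes with a mean log2 CPM above 3 in bins of equal size, and the grey band spans their quartiles. YME1L1, OPA1, MFF, MIEF1, MFN2 and FIS1 lie within the band, MFN1 and DNM1L at its lower edge, and OMA1 and MIEF2 below it.

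When each library was corrected for GC content and transcript length, the median log2 fold change of the 10 genes was −0.027, against −0.022 over all tested genes. Fitted values were then below 0 in 8 of the 10 genes and above 0 in 2. Over all genes they were below 0 in 8715 and above 0 in 7484. OPA1 was then at −0.0047, MFF at −0.0066 and MFN2 at −0.0013, while MFN1 was at −0.18 (SE 0.14), DNM1L at −0.17 (SE 0.13) and OMA1 at −0.22 (SE 0.23). FIS1 was at 0.11 (SE 0.15), near its uncorrected value. YME1L1 and MIEF1 took the opposite sign, at 0.046 and −0.048, and MIEF2 was further from 0, at −0.29 (SE 0.15). The groups then did not overlap in 3 of 10 genes, MFN1, DNM1L and MIEF2, all lower in the variant, where the share over all genes was 14.4% (and 9.31% for higher values, with 0 of 10 genes here). The corrected log2 ratio of MFN1 to MFN2 was −2.74 and −2.72 in Control and −3.03, −2.89 and −2.81 in the variant, so the difference shrank to −0.17 and the groups still did not overlap. The corrected ratio of the fusion GTPases to DNM1L overlapped between groups.

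The neighbours of each gene were also compared, as the median deviation of up to 5 expressed genes on either side from the mean of the 5 libraries. MIEF1 moved with its surroundings in most libraries: the gene deviated by −0.23 and 0.15 in Control and by 0.3, −0.31 and 0.097 in the variant on the log2 scale, and its neighbours by −0.2 and 0.12 and by 0.018, −0.2 and 0.3. DNM1L had 9 of 10 neighbours with a log2 fold change below 0, with a median of −0.19 beside its own −0.25, and MFN1 had 8 of 10, with a median of −0.11 beside −0.26. YME1L1 had 8 of 10 as well, with a median of −0.18 beside −0.045. OMA1 was at −0.31 beside a median of 0.024, within its neighbours' range of −0.36 to 0.33. OPA1, at −0.099 beside a median of 0.032, was also within the range, of −0.15 to 0.59. MIEF2, at −0.17 beside a median of 0.064, was just outside its neighbours' range of −0.15 to 0.38. The part of the neighbourhood in these values was not tested.

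Profiles over the 5 libraries were compared by the root-mean-square (RMS) difference of log2 CPM centred on each gene's mean. Within the group the most alike were MFN2 and FIS1, at 0.048, and then MFN1 and DNM1L, at 0.07, pairs that cross the line between fusion and fission. MIEF1 and OMA1 were the least alike, at 0.382. Among 10854 other genes with a mean log2 CPM above 3, those nearest to MFN1 were SETDB2 and AKAP10 (0.014 and 0.017), to MFN2 CBX6 and SGPL1 (0.008 and 0.017), to OPA1 ABCC4 and CFAP97 (0.022 and 0.026) and to DNM1L CYLD and TMF1 (0.016 and 0.017). These are the smallest of many differences over only 5 libraries, in values not corrected for GC content. Small values can arise when many genes are searched. Neither this nor a shared control of these genes was tested.

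The promoters of the 2 most alike pairs are shown, and the pairs were chosen after their values were seen. Likeness was taken from values not corrected for GC content. The transcripts of each pair are similar in GC content, 53.6% and 57.4% for MFN2 and FIS1 and 39.9% and 41% for MFN1 and DNM1L. The part of GC content in their likeness was not tested. Sequences are from RefSeq on GRCh38.p14, 5′ to 3′ on the strand of the gene, from 250 bases before to 50 bases after the annotated start. Capitals mark matches, on either strand, to GGGCGG (the GC box), CCAAT, CCGGAAGT (an ETS site), GCGCATGCG (an NRF1 site), TGACGTCA (a CRE), TCAAGGTCA (an ERR site) or AAGATGGCG (a YY1 site). Annotated starts can differ between RefSeq and the gene spans given above, as for FIS1. The windows are chr3:179347459-179347758 (plus strand) for MFN1, chr12:32679051-32679350 (plus) for DNM1L, chr1:11980194-11980493 (plus) for MFN2 and chr7:101245032-101245331 (minus) for FIS1.
MFN1: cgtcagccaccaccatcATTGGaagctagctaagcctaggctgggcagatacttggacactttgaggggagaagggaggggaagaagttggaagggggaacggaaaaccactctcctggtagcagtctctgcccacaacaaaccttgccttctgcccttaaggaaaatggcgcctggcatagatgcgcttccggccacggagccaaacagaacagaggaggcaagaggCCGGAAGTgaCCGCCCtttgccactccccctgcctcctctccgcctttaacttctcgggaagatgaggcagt
DNM1L: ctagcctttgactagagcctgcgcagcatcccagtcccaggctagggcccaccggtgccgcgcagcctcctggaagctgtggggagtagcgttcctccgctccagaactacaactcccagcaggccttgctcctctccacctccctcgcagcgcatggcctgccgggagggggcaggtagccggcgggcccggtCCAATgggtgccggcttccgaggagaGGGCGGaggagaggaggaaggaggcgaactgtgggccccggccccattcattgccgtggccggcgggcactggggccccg
MFN2: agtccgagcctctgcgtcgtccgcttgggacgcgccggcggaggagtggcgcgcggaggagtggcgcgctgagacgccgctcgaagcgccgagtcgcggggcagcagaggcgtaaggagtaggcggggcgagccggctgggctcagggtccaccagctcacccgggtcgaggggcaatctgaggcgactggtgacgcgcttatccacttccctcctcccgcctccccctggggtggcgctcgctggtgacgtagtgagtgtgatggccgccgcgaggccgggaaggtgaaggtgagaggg
FIS1: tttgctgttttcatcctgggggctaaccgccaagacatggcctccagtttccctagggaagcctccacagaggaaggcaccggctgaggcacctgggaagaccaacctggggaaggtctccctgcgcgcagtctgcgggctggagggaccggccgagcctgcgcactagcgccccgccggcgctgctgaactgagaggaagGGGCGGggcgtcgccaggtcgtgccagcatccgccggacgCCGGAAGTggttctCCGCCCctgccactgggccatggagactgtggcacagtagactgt

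MFN1 and FIS1, which are not a pair in expression, each held 1 ETS match close to the start, a match found in 4.44% of 27305 promoter windows of the same length and also in MIEF1. DNM1L and MFN1 each held 1 GC box and 1 CCAAT match, FIS1 held 2 GC boxes, and the MFN2 window held none of these letters although it had 71.3% GC and 37 CpG dinucleotides, against medians of 58.3% and 14 over all windows. GC boxes were found in 44.6% of all windows and in 8 of the 9 windows matched for the group, and CCAAT in 35.7% and in 6 of 9. The 9 windows ran from 53.3% GC in MFF to 71.3% in MFN2, and only MFF and MFN1 (57%) were below the median of 58.3%. The part of GC content in these counts was not tested. The NRF1 site, named for a regulator of nuclear genes for mitochondria, was found in 2.1% of all windows and only in OPA1 within the group. The CRE, ERR and YY1 letters had no match in the windows of the group and were found in 1.98%, 0.359% and 1.85% of all windows. In the windows printed no match overlapped another. YME1L1 had no entry in the table of windows. A match is a run of letters and does not show binding.

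Reads of 50 bases could separate the members from one another, since no 50-base window of annotated transcripts was shared between any of them, including MFN1 with MFN2 and MIEF1 with MIEF2. MFN2 shared none with any other gene, and the share that also occurred in another gene ran up to 6.06%, in YME1L1. Most of those YME1L1 windows came from MASTL, which is read from the opposite strand and shares 443 exon bases. The library kit kept strand, but whether the counting used it is not given in the sources used here, so YME1L1, and OPA1, DNM1L and MFF, which share 208, 202 and 48 exon bases with opposite-strand transcripts, are uncertain to that extent. MIEF1 and OMA1 share 213 and 257 exon bases with genes on the same strand.

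A wider list of 49 other genes of mitochondrial shape, movement and cristae, all of them tested, also gave no calls. In edgeR's test 0 of 49 had an adjusted p under 0.05, against 0% of all tested genes, and 2 had an unadjusted p under 0.05, against 7.62%. DESeq2's Wald test gave 0 at an adjusted and 3 at an unadjusted p under 0.05, against 0.196% and 7.40% of all tested genes. Fitted log2 fold changes were above 0 in 21 and below 0 in 28, with a median of −0.047. The groups did not overlap in 5 genes with higher and 11 genes with lower variant values, against 11.8% and 13% of all tested genes.

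By function, 7 of the 8 genes listed for the MICOS complex, which shapes cristae junctions, and its outer-membrane partner had a log2 fold change below 0, with a median of −0.17 (−0.21 with GC and length corrected). Over all tested genes 49.5% were below 0. In 4 of the 8 all variant libraries lay below both Control libraries, against 13% of all tested genes, and in 0 they lay above, against 11.8%. The counts above and below were 2 and 2 of 7 genes for OPA1 processing and 2 and 1 of 13 for fission. They were 0 and 1 of 6 for fusion, 0 and 2 of 7 for ubiquitin and SUMO signalling, 1 and 1 of 6 for movement, and 0 and 0 of 2 for the stress relay. The sets are small and were not tested against one another. MICOS10, a core subunit, was at 36.6 and 27.3 CPM in Control and at 16.2, 22.3 and 27.1 CPM in the variant, with Control 2 and variant 3 almost equal (log2 fold change −0.55, SE 0.24, adjusted p = 0.657 in edgeR's test). Without Control 1 it was −0.32. MICOS10 shares 555 exon bases with MINOS1-NBL1, which has no row, and 131 with NBL1 on its strand. It shares 253 with CAPZB on the other strand. The MICOS subunits APOO and APOOL were at 27.6 and 26.9 against 16.5, 22.4 and 23.0 CPM, and at 32.3 and 31.7 against 27.9, 20.1 and 25.6 CPM. Neither APOO nor APOOL passed the test. APOOL had 8 of 10 neighbours with a log2 fold change below 0, with a median of −0.28 beside its own −0.38. APOO had 5 of 10, with a median of −0.037 beside −0.4.

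In the set for OPA1 processing and inner-membrane quality control, 5 of 7 genes were above 0 and 2 below. PHB2, a prohibitin that scaffolds the proteases acting on OPA1, was at 427 and 449 CPM in Control and at 332, 316 and 394 CPM in the variant (log2 fold change −0.33, SE 0.14, unadjusted p = 0.0435 and adjusted p = 0.642 in edgeR's test). Of its 10 neighbours 9 also had a log2 fold change below 0, with a median of −0.22, and PHB2 hosts the small RNA SCARNA12 in exons of its own strand. AFG3L2, a matrix-facing protease subunit, was at 100.1 and 98.4 CPM against 129, 106 and 142 CPM (log2 fold change 0.34, SE 0.17, adjusted p = 0.659 in edgeR's test), and 0 of its 10 neighbours were below 0, with a median of 0.22. It shares 837 exon bases with TUBB6 on the other strand.

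Among 13 fission regulators, 7 were above 0 and 6 below. INF2, a formin that builds actin at fission sites, was at 58.8 and 49.8 CPM in Control and at 73.5, 121 and 63.3 CPM in the variant (log2 fold change 0.66, SE 0.27, unadjusted p = 0.0335 and adjusted p = 0.627 in edgeR's test). Variant 2 was far above the rest: the log2 fold change was 0.33 without it, and 0.39 with GC and length corrected. The median log2 fold change of its 10 neighbours on chromosome 14 was 0.57, with 1 of 10 below 0. BNIP3, a mitophagy receptor, was at 38.6 and 28.1 against 17.7, 32.1 and 17.7 CPM, and overlapped between groups. Of 6 fusion regulators 2 were above 0 and 4 below. MIGA1, which promotes fusion at the outer membrane, was at 39.4 and 23.1 against 27.1, 16.7 and 15.3 CPM, with a log2 fold change of −0.67 that was −0.23 without Control 1. The 7 genes of ubiquitin and SUMO signalling and its regulation at the outer membrane (3 above 0, 4 below), the 6 genes of mitochondrial movement and positioning (2 and 4) and the 2 genes of the stress relay from OMA1 (1 and 1) had no unadjusted p under 0.05 in edgeR's test.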

How the data were processed

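The authors deposited raw read counts per Ensembl gene for the 5 libraries, as whole numbers with no normalization, as the values show. No entry was below 3, so the table holds no gene with fewer counts. Per the labels' protocols, RNA was taken with TRIzol and strand-specific mRNA libraries were read as single-end 50-base reads on DNBSEQ; HISAT2, SAMtools, HTSeq and hg38 are listed, per the submitters' processing notes. Gene annotation and strand setting are not given in the sources used here. Columns were matched to samples by library name.

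The table of gene names gave symbols for 16627 of 16677 identifiers and GENCODE release 29 for 46 more; the latter also gave positions and exon lengths. Counts were filtered with filterByExpr by group (16310 genes kept), scaled by TMM and tested with edgeR 4.0.16 (quasi-likelihood F test, robust, group as the only term, all 5 libraries) in R 4.3.3, with two-sided p-values adjusted by Benjamini-Hochberg over all tested genes and a threshold of 0.05. SE and 95% intervals come from the same fits. Log2 CPM used a prior count of 2. Alternatives were no filter, at least 10 counts in each library, scaling by RLE or the upper quartile, DESeq2 1.42.0, limma-voom (limma 3.58.1), the replicate number as a block, splines of GC content and transcript length (5 degrees of freedom for each library), both together, and leaving out each library. The fits were also run on simulated data as a check of the code. Its outcome is not given here and does not bear on the differences reported above.

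The members and the lists were chosen with earlier results of these data known. Genes named are the 10 members, SIRT3, the 8 wider-list genes with the smallest p and, for MFN1, MFN2, OPA1 and DNM1L, the 2 genes nearest in profile. Part of the HEK293 marker list is not reported here.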

Additional observations from a re-analysis of the deposited data

How the results depend on the processing

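The counts of fusion and fission genes and of wider-list genes at an adjusted p under 0.05 were 0 in each of the 14 alternatives run, and over these the adjusted p of a member was never under 0.596. MFN1, DNM1L and OMA1 were below 0 and FIS1 above 0 in all of them. The median log2 fold change of the 10 genes, −0.13, became −0.069 with the replicate block, −0.027 with the GC and length correction and −0.074 with both. It ran from −0.15 to −0.066 when libraries were left out, the latter without variant 3. Variant 3 is the only library with its replicate number, so in both fits with the block it does not enter the group difference. In this respect those fits repeat the one without variant 3. For the fits that left 1 Control, that library is assumed to vary like the variant libraries.

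Signs changed as follows, and the cause was not tested. With the GC and length correction MFN2 was at −0.0013, YME1L1 at 0.046 and MIEF1 at −0.048. With the replicate block and this correction together MFN2 was at −0.017, OPA1 at 0.022, MFF at 0.066, YME1L1 at 0.020 and MIEF1 at −0.13. Without Control 1 OPA1 was at 0.1, YME1L1 at 0.033 and MIEF1 at −0.1. MIEF2 was at 0.013 without Control 2, MIEF1 at −0.064 without variant 1 and YME1L1 at 0.012 without variant 2. With libraries left out in turn, OPA1 ran from −0.28 to 0.1, YME1L1 from −0.12 to 0.033, MIEF1 from −0.1 to 0.28 and MIEF2 from −0.33 to 0.013. The labels do not say that a shared replicate number pairs libraries, and deviations from the group means correlated at 0.154 for number 1 and −0.209 for number 2 across 10864 genes. The block left the count of calls over all genes at 0.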
